A study of Mus musculus with 27 samples.

Results

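The Period and cryptochrome genes make the repressing arm of the circadian clock. DNA methylation was followed here at 7 genes grouped with that arm: Per1, Per2, Per3, Cry1, Cry2, Ciart and Timeless. The window of a gene ran from 5 kb upstream of its start to 1 kb past its end on mm10, and the positions in it with a value in all 27 libraries were joined into runs wherever neighbours lay at most 200 bp apart. This gave 11 runs out of 18447 in the whole genome, with 565 positions at 378 CpGs or more, as CpGs that abut were counted as 1. A run is the unit below, and its level is the mean over its positions in a library, as the deposited methylation level in percent.

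The libraries were made by reduced representation bisulfite sequencing (RRBS), in which a restriction enzyme cuts out CpG-rich fragments before bisulfite conversion, from C2C12 cells. C2C12 is a mouse myoblast line that forms myotubes when serum is lowered, here to 2% horse serum. All cells then had a shock of 50% horse serum for 2 h, which is used to align the clocks of cells in a dish, and DNA was taken at 12, 18, 24, 30, 36, 42, 48, 54 and 60 h, with 3 libraries at each time. Every library comes from the same line and the same treatment, and unshocked cells were not analysed here. The number of reads behind a level is unknown. Methylation carries no transcript level, so that the muscle identity of the cells could not be checked from it. Of 7 muscle genes looked up, the 5 that could be placed held 7 runs with mean levels between 3.23% (Mylpf, a myosin light chain gene) and 83.9% (Myog, the myogenin gene).

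In the clock, the activators CLOCK and BMAL1 bind E-boxes in gene starts and switch on the Per and Cry genes. The PER and CRY proteins gather in a complex, enter the nucleus and repress the same activators, and their slow build-up and decay set the daily period. CIART, also called CHRONO, is a further repressor of CLOCK and BMAL1. TIMELESS is the relative of a Drosophila clock protein that pairs with PER in the fly, and in mammals it works mainly at the replication fork. The core E-box, CACGTG, holds a CpG and can itself be methylated.

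The starts of 4 members have both a listed promoter sequence and measured positions, and they are shown because the CpGs of these sequences are the ones whose levels follow. Each runs 5′ to 3′ on the gene's own strand from 250 bases before to 50 bases after a RefSeq transcript start (GRCm38.p6, the assembly that mm10 names). Capitals mark motif matches. They are 3 E-boxes in Ciart (chr3:95882179-95882478, minus strand), an E-box and the E-box variant AACGTG in Cry1 (chr10:85185005-85185304, minus strand), that variant in Cry2 (chr2:92434020-92434319, minus strand), and a pair of D-boxes in Per3 (chr4:151044616-151044915, minus strand). The D-box, TTATGTAA, is the site of the DBP, TEF and HLF factors and holds no CpG.
Ciart: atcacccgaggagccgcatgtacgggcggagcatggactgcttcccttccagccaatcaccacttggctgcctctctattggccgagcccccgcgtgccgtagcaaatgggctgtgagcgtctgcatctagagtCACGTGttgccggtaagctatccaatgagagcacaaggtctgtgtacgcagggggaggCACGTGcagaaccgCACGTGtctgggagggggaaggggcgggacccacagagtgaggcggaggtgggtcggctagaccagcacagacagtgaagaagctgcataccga
Cry1: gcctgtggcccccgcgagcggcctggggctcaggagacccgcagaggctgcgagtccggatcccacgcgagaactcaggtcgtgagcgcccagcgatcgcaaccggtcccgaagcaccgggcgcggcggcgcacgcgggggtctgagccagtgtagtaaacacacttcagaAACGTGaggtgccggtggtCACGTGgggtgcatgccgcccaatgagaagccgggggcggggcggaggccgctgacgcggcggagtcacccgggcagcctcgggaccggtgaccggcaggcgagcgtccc
Cry2: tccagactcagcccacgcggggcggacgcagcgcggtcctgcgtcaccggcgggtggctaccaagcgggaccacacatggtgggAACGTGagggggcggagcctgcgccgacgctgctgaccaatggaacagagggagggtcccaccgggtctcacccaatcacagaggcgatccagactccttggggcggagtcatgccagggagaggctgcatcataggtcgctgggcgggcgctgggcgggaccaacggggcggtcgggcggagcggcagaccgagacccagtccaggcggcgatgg
Per3: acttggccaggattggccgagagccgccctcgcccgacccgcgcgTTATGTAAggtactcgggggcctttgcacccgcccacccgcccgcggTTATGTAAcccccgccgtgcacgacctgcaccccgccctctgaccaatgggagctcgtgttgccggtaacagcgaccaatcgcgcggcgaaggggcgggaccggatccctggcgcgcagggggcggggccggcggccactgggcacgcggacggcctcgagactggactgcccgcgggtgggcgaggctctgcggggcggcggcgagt

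Matches were sought on both strands, and no motif overlapped another in these sequences. The E-box CACGTG reads the same on either strand and was present in 7.15% of the 32817 RefSeq promoters of that length. The variant, spelled AACGTG above, was present on one strand or the other in 4.69%. The D-box TTATGTAA was present in 0.935% of them. The cAMP response element TGACGTCA, present in 1.79%, was also sought and is in none of these 4 sequences. The promoters are rich in CpG, with 41 CG in Per3, 38 in Cry1, 30 in Cry2 and 19 in Ciart, where the median promoter holds 7. A methylation value was present at 30 of these CG in Per3, 25 in Cry1, 16 in Cry2 and 15 in Ciart. A match is a description of the letters and not of binding.

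All 11 runs lay at gene starts, taken as 5 kb upstream to 1 kb inside, and none was placed in a gene body or at a gene end. Only Cry1 reached past the start, with 11 of its 227 positions in the body. Among 17275 protein-coding genes with a known strand, 58.2% had a start run, 15.2% a body run and 4.29% an end run, and 71.5% of the genes with any run had start runs only. The members were mostly little methylated. Their median run level was 3.76%, against 4.62% over all 11945 start runs and 6.23% over all runs, and 9 of the 11 runs lay under 10%, against 63.2% of all start runs. The other 2 runs are upstream of Timeless, inside its neighbour Mip.

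Per1 was measured over 20 positions at chr11:69095026-69095228, from -82 bp to 120 bp of the RefSeq gene start. Its level was 3.67% ± 3.64 (SD, n = 27 libraries), with 0% in 5 libraries, a median of 3.53% and a highest value of 17.5% in 24 h replicate 1. That library stood far above its own companions, which had 6.49% and 1.89%. The 2 internal Per1 transcript starts for which RefSeq promoters are listed had no measured position, so the values speak only for the most upstream start.

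Per2, whose loss shortens and then ends the rhythm in mice, was measured over 85 positions at chr1:91459092-91459667, from -316 bp to 259 bp. Its level was 1.75% ± 1.54, between 0.154% and 6.74% with a median of 1.27%. The highest library was 18 h replicate 3, and the other libraries of 18 h had 1.27% and 2.37%. At 12 h the 3 libraries lay between 0.154% and 0.840%, and at 48 h between 0.581% and 1.16%, and the values of these times overlapped.

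Per3, the member of the family least needed for the rhythm, was measured over 78 positions at chr4:151044009-151045041, from -334 bp to 698 bp, where the annotation also places Gm38529. Its run level was 4.83% ± 1.09, with a lowest value of 2.75%, a median of 4.75% and a highest value of 7.49% in 54 h replicate 3. This mean hides an uneven profile. The promoter shown above stood at 1.43% ± 1.56, whereas the 6 positions from 200 bp to 272 bp inside the gene stood at 24.2% ± 5.60, between 14.0% and 35.8%, and the 7 positions from 377 bp to 472 bp at 13.5% ± 3.95. Both inner stretches were above the mean of the positions under 10% in 27 of 27 libraries. They were picked out by their level, so this is a description without a test. The highest position, 200 bp inside the gene, reached 30.6%, and its libraries ran from 14.9% to 42.3%.

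**Figure D1:**
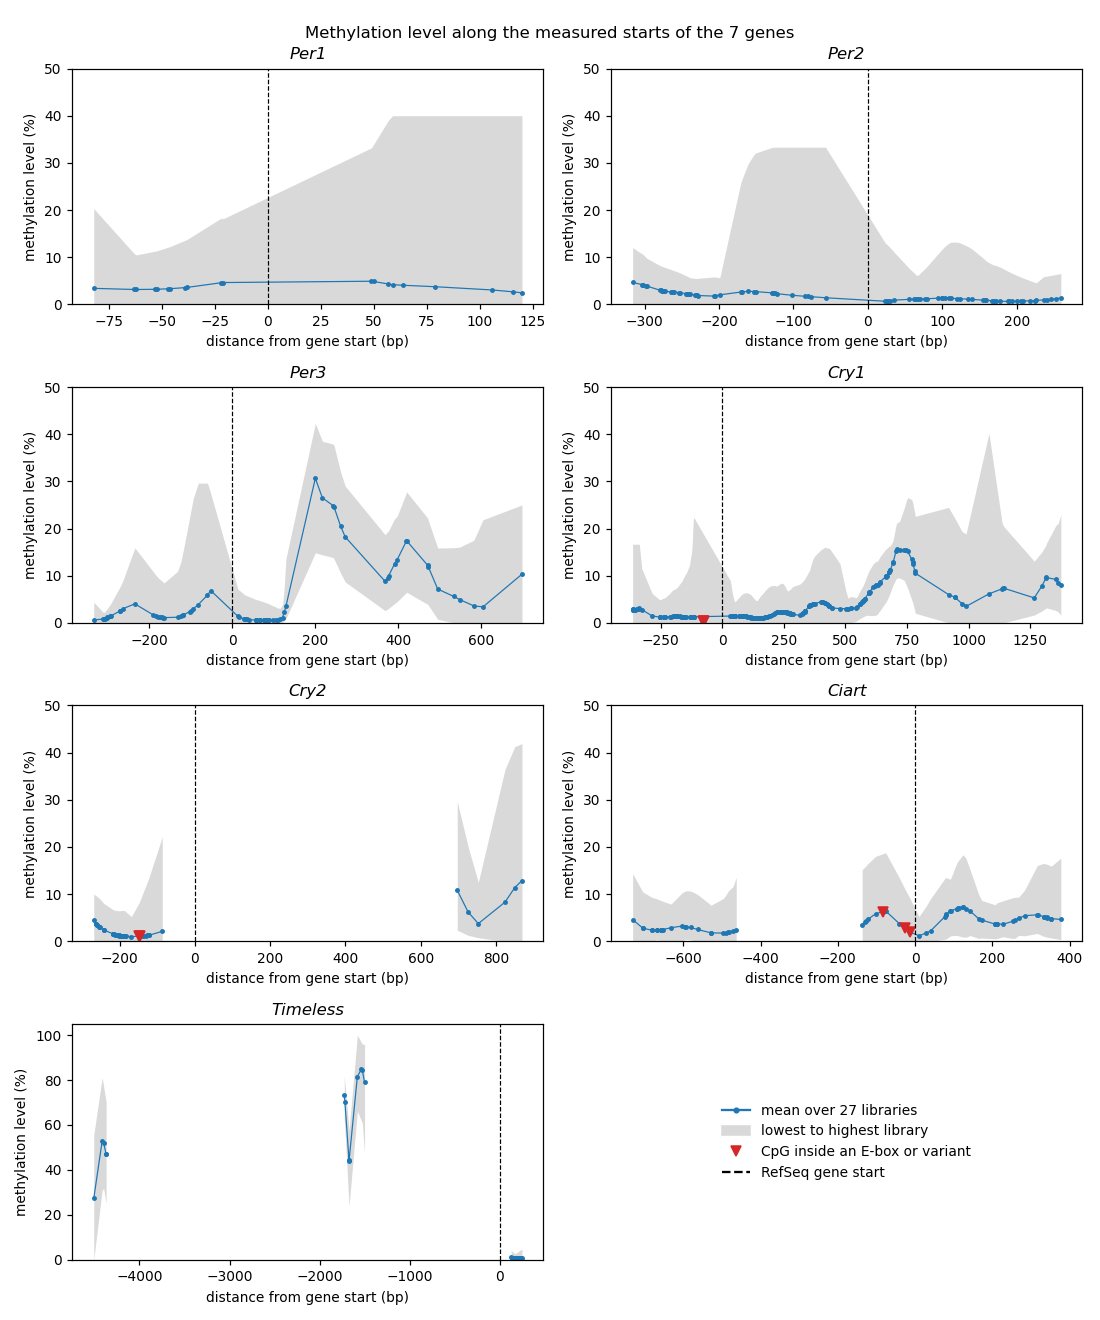
Methylation level in percent against distance from the RefSeq gene start in bp, along the gene's direction, for each of the 7 genes; points are positions (mean over 27 libraries), grey bands run from the lowest to the highest library and red marks are CpGs in an E-box or its variant. Higher levels are seen in inner stretches of Per3 (24.2% and 13.5%) and Cry1 (13.2%), in the inner run of Cry2 (8.89%) and in the 2 upstream runs of Timeless (45.3% and 70.2%, on a taller axis).

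Cry1 had the longest measured stretch, 227 positions at 127 CpGs or more, chr10:85183679-85185418, from -364 bp to 1375 bp. Its run level was 3.76% ± 0.975, from 1.70% to 5.90% with a median of 3.68%, and the highest library was 12 h replicate 2. As in Per3, the levels were lowest around the start and higher inside the gene. The 18 positions from 676 bp to 784 bp stood at 13.2% ± 3.52, between 7.56% and 19.5%, against 2.95% ± 0.950 for the 209 positions under 10%, and they were above the rest in 27 of 27 libraries, again without a test. The 11 positions that fall in the gene body, more than 1 kb inside, had 7.82% ± 3.52, against 3.55% ± 1.05 for the 216 start positions. Start minus body was thus -4.27 ± 3.88 points, with the start lower in all but 4 of 27 libraries (two-sided sign-flip permutation test over libraries, p = 1e-05, the smallest that 100000 resamples can give; adjusted p = 1.2e-05 over 6 such comparisons). Only this comparison was planned. Its body positions all lie between 1083 bp and 1375 bp, at the inner end of the run. They do not sample the rest of the gene body. The start side includes the stretch from 676 bp to 784 bp, whose mean of 13.2% was above that of the body positions.

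Cry2 was measured in 2 runs. The upstream run, 38 positions at chr2:92434172-92434354 from -269 bp to -87 bp, had 1.76% ± 1.36, from 0% to 5.96% with a median of 1.54%. The inner run, 6 positions at chr2:92433216-92433388 from 697 bp to 869 bp inside the gene, had 8.89% ± 5.01, from 0.786% to 25.1% with a median of 7.93%. The upstream run was lower by 7.13 points on average (-7.13 ± 5.05), and it was the higher of the pair in 1 of 27 libraries (sign-flip permutation test, adjusted p = 1.2e-05). This comparison and those of the runs of Timeless and Ciart were chosen after the levels had been seen, so their p-values are only a description. The highest inner value belonged to 48 h replicate 2, whose companions had 5.94% and 12.3%.

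Ciart was measured in 2 runs, both also within the long noncoding gene C920021L13Rik. The start run, 50 positions at chr3:95881880-95882394 from -137 bp to 377 bp, had 4.84% ± 1.46, from 2.35% to 7.91% with a median of 4.67%. The upstream run, 25 positions at chr3:95882720-95882988 from -731 bp to -463 bp, had 2.50% ± 1.43, from 0.568% to 6.54% with a median of 2.22%. Upstream minus start was -2.34 ± 2.17 points, with the upstream run higher in 3 of 27 libraries (sign-flip permutation test, adjusted p = 3e-05). The pair was chosen after the levels had been seen, so the p-value is only a description. The Ciart start was the least empty of the measured promoters, with 3.91% ± 2.43 over its 300 bp, beside 1.43% ± 1.56 in Per3, 1.30% ± 1.86 in Cry1 and 1.28% ± 1.42 in Cry2.

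Timeless showed the widest range within 1 window. At its start, 23 positions at chr10:128232187-128232307, from 124 bp to 244 bp, had 0.749% ± 0.874, with 0% in 7 libraries, a median of 0.427% and a highest value of 3.17%. Gm26847 overlaps this run. The near upstream run, 8 positions at chr10:128230336-128230561 from -1727 bp to -1502 bp, had 70.2% ± 5.13, from 56.1% to 80.1% with a median of 70.7%. The far upstream run, 5 positions at chr10:128227557-128227694 from -4506 bp to -4369 bp, had 45.3% ± 9.88, from 26.8% to 65.9% with a median of 47.0%. Both upstream runs lie in Mip, which encodes the water channel of the eye lens, and thus in the span of another gene. Far minus near was -25.0 ± 10.5 points, with the far run higher in 1 of 27 libraries, and both were above the start run in 27 of 27 (sign-flip permutation tests, adjusted p = 1.2e-05 each). These pairs were chosen after the levels had been seen, so the p-values are only a description. The libraries were made from bulk DNA, so that fewer cells methylated on both alleles and more cells methylated on 1 allele cannot be told apart.

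A serum-shock time course can show whether levels follow the time after the serum shock, and a 24 h cosine and sine were fitted to each run over the 27 libraries. At the 7 genes no run passed. None of the 11 runs had an adjusted p under 0.05 (limma F test with Benjamini-Hochberg adjustment over all 18447 runs, adjusted p from 0.980 to 0.990), and none had an unadjusted p under 0.05. In the genome 0% of runs passed after adjustment and 4.34% had an unadjusted p under 0.05. The fitted amplitude, which is the distance from the mean to the peak of the wave, had a median of 0.581 points over the 11 runs, against 0.870 points over all runs. The 9 member runs under 10% had a median amplitude of 0.526 points at a median level of 3.67%, against 0.572 points at 2.86% over the 10581 runs under 10% in the genome.

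The upper limits bound the rhythm that these libraries leave room for. The level is itself a bound, since it cannot be negative and a wave cannot be larger than its mean. For the 9 low runs the upper 95% limit of the amplitude ran from 1.07 points to 4.97 points. It was 1.07 points in Cry1 (fitted amplitude 0.256, SE 0.313), 1.29 points in Per3 (0.417, SE 0.306) and 1.28 points at the Timeless start (0.594, SE 0.239). Per2 had a limit of 1.72 points and Per1 one of 3.90 points (fitted amplitude 1.21, SE 0.948). In Per1 and at the Timeless start the limit lies above the mean level (3.67% and 0.749%), and in Per2 just under it (1.75%). There it adds little to the bound set by the level. In Cry1 and Per3 the limit lies well under the level (3.76% and 4.83%). The Cry2 runs had limits of 1.37 points upstream and 4.97 points inside, and the Ciart runs 1.56 points upstream and 1.70 points at the start. The near upstream run of Timeless had a limit of 4.86 points, and the far one, with 5 positions, a limit of 12.5 points around a fitted amplitude of 5.80 (SE 2.37).

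**Figure D2:**
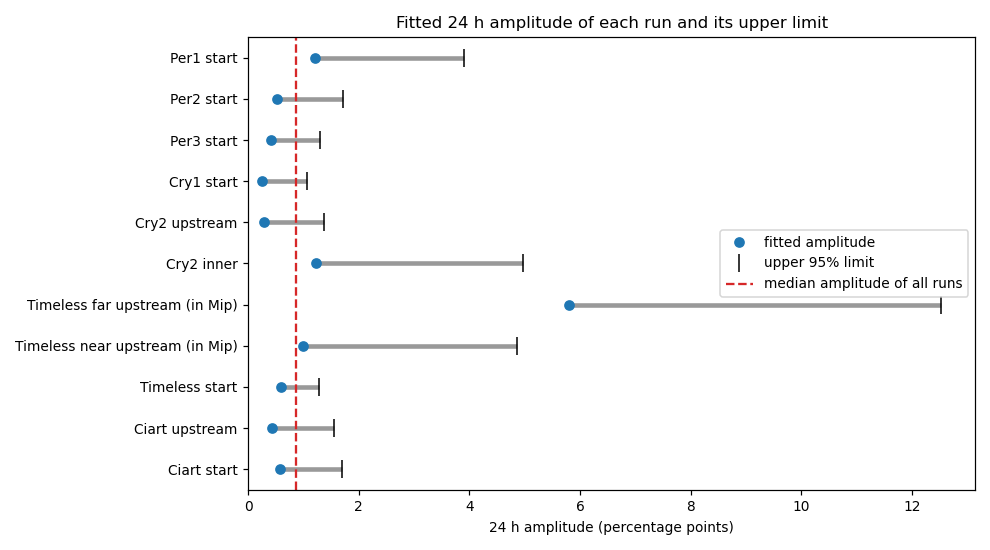
Fitted 24 h amplitude of each of the 11 runs in percentage points (points) with its upper 95% limit (end of bar), and the median amplitude of all runs in the genome (dashed line, 0.870 points). Limits lie under 5 points in all runs but the far upstream run of Timeless, at 12.5 points. A wave cannot be larger than its mean level, which is under 10% in 9 of the 11 runs.

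The smallest unadjusted rhythm p-values belonged to Timeless, at 0.0629 for the start run and 0.0673 for the far upstream run (limma, adjusted p = 0.980 for each). At the start of Timeless the 12 h libraries had 0.367%, 1.92% and 0%, and the 24 h libraries 3.17%, 0.788% and 2.27%. The 36 h libraries had 0%, 0.848% and 0%, and the 48 h libraries 1.73%, 2.18% and 0.243%. The 24 h and 48 h values were thus higher on average than those of 36 h, but single libraries of each time overlapped, and every value was at or under 3.17%. In the far upstream run, the 30 h libraries had 47.5%, 65.9% and 32.6%, the 48 h libraries 27.6%, 47.0% and 26.8%, and the 60 h libraries 58.4%, 63.3% and 44.1%. The 30 h libraries alone spanned most of the range of all times.

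A change of any shape between the 9 time points was tested next. No member run passed after adjustment, where 0.00542% of all runs did, a single run elsewhere in the genome. That genome count was itself unsteady: it was 0 without 48 h replicate 1 or without 48 h replicate 2, and 3 without 18 h replicate 1. Unadjusted, 1 of 11 member runs had a p under 0.05, where 4.3% of all runs did. It was the near upstream run of Timeless (limma time factor, n = 27 libraries, p = 0.00122, adjusted p = 0.899). At 24 h its 3 libraries had 70.3%, 74.1% and 71.3% (mean 71.9% ± 1.96, SD, n = 3). At 30 h they had 63.8%, 62.5% and 56.1%, the lowest time mean at 60.8% ± 4.15. At 36 h the mean was 71.5% ± 2.55, and at 60 h, with 75.4%, 80.1% and 71.7%, it was the highest at 75.7% ± 4.21. The 30 h libraries did not overlap those of 12 h, 24 h, 36 h, 48 h, 54 h or 60 h. They overlapped those of 18 h, which reached down to 62.8%, and of 42 h, which reached down to 63.0%. The 30 h time was singled out, and the times printed were picked, after the values were seen.

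A drift from 12 h to 60 h was not called in any member run either. No run had an adjusted or an unadjusted p under 0.05 for a linear trend, where 0% and 4.99% of all runs had one. The smallest unadjusted p was again that of the near upstream run of Timeless, with a slope of 5.55 points per 48 h (SE 2.84, limma, n = 27 libraries, p = 0.0613).

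**Figure D3:**
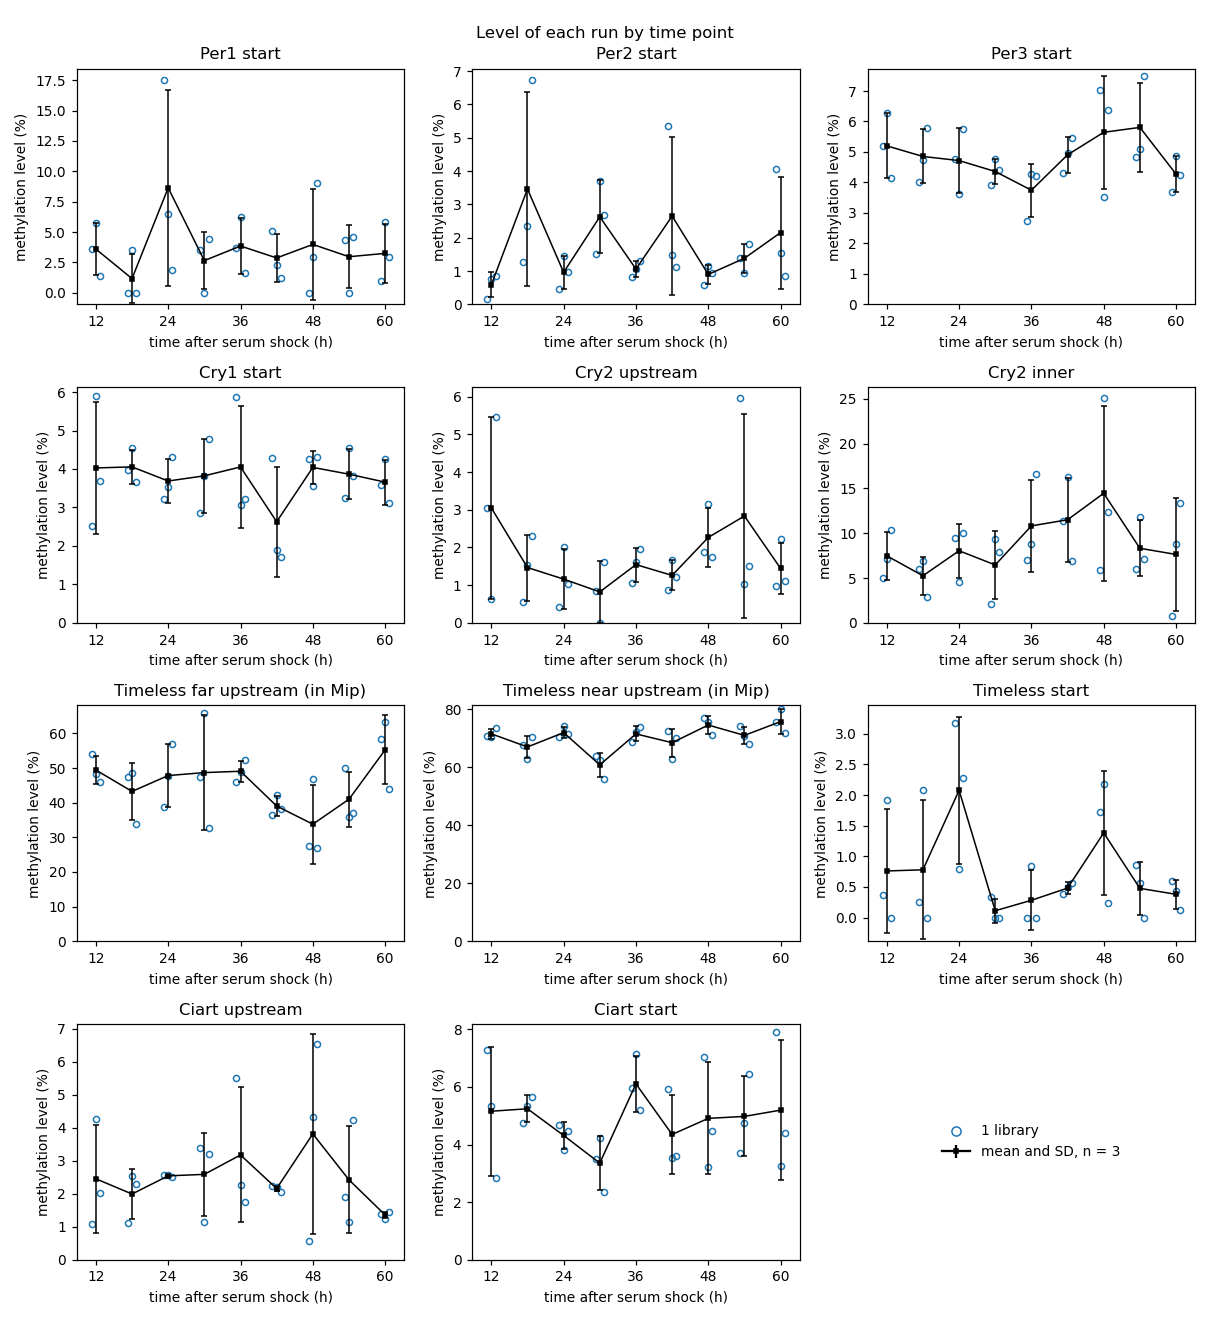
Level of each of the 11 runs in percent against time after the serum shock in h; open circles are single libraries, squares and bars the mean and SD of the 3 libraries of a time. Single high libraries are seen at 24 h in Per1 (17.5%) and at 48 h in the inner Cry2 run (25.1%), and the low 30 h mean of the near upstream run of Timeless at 60.8%.

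High values in the low runs did not come from 1 library. Among the 9 runs under 10%, 24 h replicate 1 was the highest library in 2, Per1 and the Timeless start, and 7 other libraries were the highest in 1 run each. Over the positions with a value in all 27 libraries, the share at exactly 0 ran from 5.15% to 25.4% per library. Over the whole table the number of missing positions ran from 1640 to 21925 per library. The part of this in the values above was not tested.

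Single positions were tested in the same way, since a rhythm at a few CpGs could be lost in a run mean. As the levels of close neighbours go together, a rhythm at 1 CpG alone could be missed here too. None of the 565 member positions passed (limma, Benjamini-Hochberg over 871894 positions, lowest adjusted p = 0.953), where 0% of all positions did. Unadjusted, 36 of 565 (6.37%) had a p under 0.05, where 3.91% of all positions did. They fell into few groups: 19 between 568 bp and 640 bp in Cry1, 10 between -581 bp and -463 bp in Ciart, 3 each in the Ciart start and in Per3, and 1 in the far upstream run of Timeless. Positions of such a group are not separate measurements. Deviations of member positions from their mean over libraries had a Pearson correlation of 1.00 for pairs 1 bp apart. Farther off it was 0.974 (2 to 20 bp), 0.721 (41 to 60 bp), 0.256 (81 to 100 bp) and 0.0629 (over 100 and up to 200 bp); these are pairs of positions in the same libraries. The 19 positions of Cry1 had levels of 4.45% to 8.60% and amplitudes of 1.14 to 2.29 points. The 10 upstream positions of Ciart had levels of 1.74% to 2.93% and amplitudes of 1.34 to 2.60 points. Among them was the smallest unadjusted p of all member positions, 0.000624 at -528 bp (limma, adjusted p = 0.953). The Timeless position, at -4506 bp, had the largest amplitude of all members, 13.5 points at a level of 27.3% (limma, n = 27 libraries, p = 0.00114, adjusted p = 0.953). Its upper limit was 22.0 points, while 485 of the 565 positions had an upper limit under 5 points and 557 one under 10 points. Most of these small limits follow from the levels, as a wave cannot be larger than its mean. The mean level was under 5% at 454 positions and under 10% at 517.

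In Ciart the CpGs inside all 3 E-boxes had a level. The site farthest from the gene start, at -84 bp, had 6.26% ± 4.13 (SD, n = 27), from 0% to 18.6% with a median of 5.72%. The middle site, at -27 bp, had 2.76% ± 2.23, from 0% to 11.2% with a median of 2.41%, and the nearest, at -13 bp, 1.96% ± 1.899, from 0% to 9.03% with a median of 1.59%. The middle and the nearest site lie within 20 bp of each other, where deviations had a correlation of 0.974, so they are not separate measurements. The site at -84 bp and the middle one are a pair of the 41 to 60 bp range, where the correlation was 0.721. A level printed for an E-box CpG may thus also reflect its neighbours. Fitted amplitudes were 0.642, 0.596 and 0.854 points in the same order, with upper 95% limits of 3.77, 2.30 and 2.27 points (limma, n = 27 libraries, unadjusted p = 0.847, 0.614 and 0.244).

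At the site at -84 bp the 24 h libraries had 6.65%, 10.9% and 13.5%, and the 36 h libraries 1.61%, 3.21% and 11.7%. The 48 h libraries, a full cycle after 24 h, had 7.99%, 6.46% and 3.46%. The 60 h libraries had 18.6%, 3.83% and 5.72%. The values of 24 h and 48 h overlapped, and so did those of 36 h with both. A single library, 60 h replicate 1, was the highest of all 27 at each of the 3 sites, with 18.6%, 11.2% and 9.03%. As levels of close sites go together, these are not separate observations. The other libraries of 60 h were at or under 5.72% at all 3 sites.

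**Figure D4:**
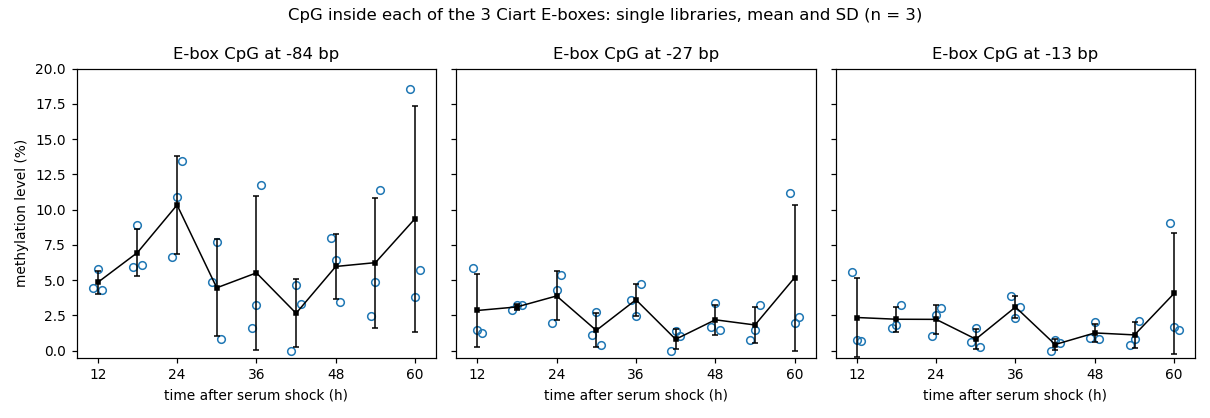
Level in percent at the CpG inside each of the 3 Ciart E-boxes against time after the serum shock in h; open circles are single libraries, squares and bars the mean and SD of 3. Most libraries lie under 10%, and 60 h replicate 1 is highest at every site (18.6%, 11.2% and 9.03%).

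In the other starts the motif CpGs were close to empty or had no value. The AACGTG of Cry2, at -147 bp, had 1.09% ± 1.72, from 0% to 8.44% with a median of 0.500% (amplitude 0.450 points, upper limit 1.79 points). The AACGTG of Cry1, at -76 bp, had a value in 26 libraries, which is why it is outside the runs, and it was 0% in 19 of them, with a mean of 0.329% and a highest value of 2.61%. The CpG in the CACGTG of Cry1 had no measured position. Over all RefSeq promoters, 876 positions lay in a CACGTG and had a value in every library. Their median level was 2.48% and 81.2% of them were under 10%, beside 2.37% and 82.5% of the 202439 positions in promoters. None of the 876 passed the rhythm test after adjustment (limma), and 3.88% had an unadjusted p under 0.05, beside 3.45% of all positions in promoters. Of 375 positions in the variant, none passed and 5.07% had an unadjusted p under 0.05. These shares were not tested against each other.

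For comparison, 22 other clock genes were looked up. Of these, 16 had runs, 34 in all with 24 at starts, 5 had no strand in the tables used and Csnk1e had no run. The 7 member genes had a median run level of 3.76% and a median amplitude of 0.581 points, beside 4.91% and 0.884 points in these 34 runs. The difference was not tested. None of the 34 had an adjusted p under 0.05 for the rhythm, the time points or the trend, and 0, 1 and 3 had an unadjusted one (limma), where 4.34%, 4.3% and 4.99% of all runs in the genome had one. The genes with the smallest unadjusted rhythm p were Dbp (0.110), a D-box activator of the clock output, its relative Tef (0.172) and Fbxw11 (0.180), a ubiquitin ligase subunit that acts on PER proteins. The highest start levels were those of Dbp, with 61.9% ± 4.99 in a run centred at -3541 bp, of Fbxw11, with 42.9% ± 8.97, and of Npas2, the paralog of Clock, with 17.7% ± 2.95. As in Timeless, the high run of Dbp was not the one at the start, where the level was 1.71% ± 3.48.

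For the 2 member runs between 10% and 90%, the runs elsewhere with the most similar values over the 27 libraries were sought. They are given as a description, picked as the highest among all runs. For the far upstream run of Timeless they lay at Adra2a (Pearson r = 0.741), at Ren1 and Etnk2 (0.678) and at Ufd1 and 2510002D24Rik (0.633). For the near upstream run, runs at Wap (0.628) and Tmem28 (0.610) were among them.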

How the data were processed

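The authors deposited 1 table of methylation levels for the series, with a fraction from 0 to 1 for each position and library, per the file headers and values; it holds no read counts, so no interval from depth could be given. Per the submitters' processing notes reads were handled with Bismark 0.14.4, Bowtie2, Trim Galore 0.4.0 and cutadapt 1.9.1, on mm10, with no order or settings. Levels of close neighbours go together, with a mean absolute difference of 0.0269 points over 187 pairs of member positions 1 bp apart. A level may thus reflect nearby positions as well, and whether levels were smoothed is not stated. Of 937644 positions, 871894 had a value in all 27 libraries and were kept, in percent; runs hold at least 3 of them. In RefSeq promoters 99.98% of positions fell on a C or G of a CG when counted from 1, so coordinates are printed as in the table.

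Run means were tested with limma 3.58.1 (R 4.3.3) in percentage points over all 27 libraries, for a 24 h cosine and sine, for the time point and for linear time, with Benjamini-Hochberg adjustment over all runs or positions and a threshold of 0.05. Time points are the groups, from the labels. The upper 95% limit adds the margin of the F distribution to the amplitude. Differences within a gene used sign flips over libraries (numpy 2.4.6). The rhythm fit was also run on simulated run levels with known waves. Simulated levels could be negative, so that run does not measure the power at little methylated runs. A logistic model on read counts, planned for a table with counts, could not be used. Gene spans and strands come from RefSeq tables (GRCm38.p6); the strand of Per2, absent there, was set to minus from general knowledge. The labels do not say that replicates came from separate cultures, so p-values measure the spread between these libraries, which may be technical. The members and lists were chosen with earlier results of these data known. Named were all 7 members and, of the other clock genes, the 3 with the smallest rhythm p and the 3 with the highest start level. For each member run between 10% and 90%, the 3 most similar runs were sought, of which 1 is not reported here.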

Additional observations from a re-analysis of the deposited data

How the results depend on the processing

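No member run or position was called under any alternative that was run: 42 alternatives for the rhythm (lowest adjusted p = 0.960), 39 for the time points (0.503), 39 for the trend (0.934) and 34 for single positions (0.943), by limma. They were M-values, other gaps, more positions or fewer libraries required, medians, the library mean as a covariate, other moderation, other periods, a further linear term and each library, or all of 1 replicate number, left out; for single positions only some of these apply. The requirement of at least 10 positions leaves out the inner Cry2 run and both upstream runs of Timeless. Unadjusted, 0 to 1 member runs had a p under 0.05 for the rhythm, 0 to 2 for the time points and 0 to 1 for the trend. The time-point p of the near upstream run of Timeless ran from 0.000579 to 0.0294. Cry1 start minus body ran from -4.54 to -3.81 points over 32 alternatives, with a highest p of 0.0013 (sign-flip permutation test). Of 363 run levels, 1 moved by more than 1 SD: the upstream Ciart run reads 4.06% with gaps of up to 500 bp, which join it to the start run. Over the whole genome, leaving out 36 h replicate 3 gave 1 called position, against 0. The count of runs called for the time points over the genome, 1, was 0 with M-values, medians, the library mean as a covariate, without 48 h replicate 1, without 48 h replicate 2 and without all libraries of replicate 1 or of replicate 2. It was 2 with other moderation, with the replicate block, without all libraries of replicate 3 and without 1 of these libraries: 24 h replicate 2, 24 h replicate 3, 30 h replicate 3, 36 h replicate 3, 42 h replicate 3, 48 h replicate 3 or 54 h replicate 1. It was 3 without 18 h replicate 1.

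With the replicate block, 0 member runs were called for the rhythm, the time points or the trend. Same-numbered libraries of different times showed little joint deviation (mean r = 0.00489 over 108 pairs, from -0.0434 to 0.0378). Other-numbered libraries had a mean r of -0.00242 over 216 pairs, from -0.0436 to 0.0388. As no pair of either kind went above 0.0388, the numbers were not taken to pair libraries. Against that, 18 of 27 libraries correlated best with their own number, which is a hint from the data and not from the design. The unknown depth limits what can be said of levels near 0%.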

Other observations

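In the 7 windows 570 positions are listed, and the 5 left out for missing values are all in Cry1. The position at -66 bp had a value in 24 libraries, with a mean of 0.286%, and those at -365 bp and -373 bp had one in 22, with means of 2.78% and 3.24%. The other 2 are the C and the G of the AACGTG described above, each with a value in 26 libraries.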
